A study of Homo sapiens with 8 samples.

Results

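The 10 genes described here were chosen by name as the transcriptional feedback and output genes of ERK signalling: DUSP4, DUSP5, DUSP6, SPRY2, SPRY4, SPRED1, SPRED2, ETV4, ETV5 and PHLDA1. The rule names genes and sets no threshold on a measured value, and all 10 were among the 27776 genes listed for at least 1 of the cell lines. RNA-seq had been performed on 769-P and CAKI-1, established human clear cell renal carcinoma lines, and each was cultured for 16 hours with or without branched-chain amino acids (BCAA), that is valine (0.17 mM) together with leucine and isoleucine (both 0.38 mM). Every condition held 2 libraries, so that 4 libraries were compared within each line and 8 in all. The study's legend for its RNA-seq gives another number of replicates than these labels do, and only the labelled libraries were analysed here. Before treatment, 769-P cells had been kept in RPMI medium and CAKI-1 cells in MEM, and the study's methods describe the depleted medium as made from amino acid-free RPMI with dialyzed serum. Each line stands for 1 tumor only. The sources used here do not say that the replicates were separate cultures, so p-values measure the spread between these libraries, which may be technical. The question asked of these genes is how their transcripts differed between cells with BCAA and cells without.

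Growth factor receptors activate ERK through RAS, RAF and MEK, and active ERK induces a set of genes that hold the same pathway back. The dual-specificity phosphatases (DUSP) remove the activating phosphates from ERK and related kinases, and the Sprouty (SPRY) and SPRED proteins act at the membrane against signalling from receptors through RAS and RAF. The transcription factors ETV4 and ETV5, of the PEA3 group of ETS factors, and PHLDA1, a protein with a pleckstrin homology-like domain, are further genes induced along this route. Transcripts of such genes are often read as a measure of ERK output.

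Between 30979773 and 64256834 reads per library lay on listed genes, and the 10 genes were covered by 285 to 15060 reads in 769-P and by 61 to 7802 reads in CAKI-1. In 769-P both libraries with BCAA were deeper than both without, and depth can there not be told apart from condition, although reads thinned to a common depth gave the same counts of calls among the 10 genes. Of 10 renal tubule and renal carcinoma markers, 8 in 769-P and 7 in CAKI-1 had a mean of at least 10 normalized reads. CA9 was not listed in either line, PAX2 and LRP2 were not listed in CAKI-1. Of 8 markers of other cell types, none reached that mean in 769-P, where their summed level was 13.7 to 18.2 with BCAA and 6.1 to 13.7 without. In CAKI-1 they summed to between 2549.9 and 2798.3 with BCAA and between 2772.3 and 2813.0 without, nearly all of it the matrix gene LUM, while the leukocyte marker PTPRC and the endothelial markers PECAM1 and CDH5 were not listed. The part of these markers in the results was not tested. Of the related genes described below, HRAS, DUSP8, DUSP14 and PHLDA2 were also listed in neither line. Why a gene was not listed is not given in the sources used here, so an unlisted gene need not have been unexpressed.

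Levels are given as normalized reads, that is, reads per gene divided by a size factor for the library, not by gene length. Fold changes are BCAA against no BCAA on the scale of log2(value + 1), which understates the change of low genes, and a gene was called where limma's p-value, adjusted by the Benjamini-Hochberg method over all genes of the line, was under 0.05. In 769-P, 1 of the 10 genes was called higher with BCAA (PHLDA1), against 20.3% of the 22391 genes tested, and 4 were called lower (DUSP4, DUSP5, SPRED2 and ETV5), against 18.2%. In CAKI-1, 3 of the 10 were called lower (DUSP4, SPRY2 and PHLDA1), against 9.05% of the 21347 genes tested. None was called higher there, against 10.8% of all genes, and none was called higher with edgeR or DESeq2. At an unadjusted p under 0.05 none was higher and 6 were lower, against 16.4% and 15.0% of all genes. These shares include genes of low level. With only genes of a mean of at least 10 tested, the limma counts among the 10 genes were the same in both lines. The shares of all genes were then 29.3% higher and 26.3% lower in 769-P, and 15.4% higher and 13.2% lower in CAKI-1. All 10 log2 fold changes lay below 0 in CAKI-1, with a median of -0.42, while 50.8% of all genes tested lay below 0 and their median was -0.01. That median of the 10 was -0.17 without BCAA replicate 1 and -0.60 without BCAA replicate 2, and 9 of 10 lay below 0 with median centring and without BCAA replicate 1, no BCAA replicate 1 or no BCAA replicate 2. In 769-P, 5 of 10 lay below 0, with a median of -0.00 against -0.02 over all genes. RNA of whole cultures was measured, so fewer cells expressing a gene and less RNA per cell cannot be told apart.

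**Figure D1:**
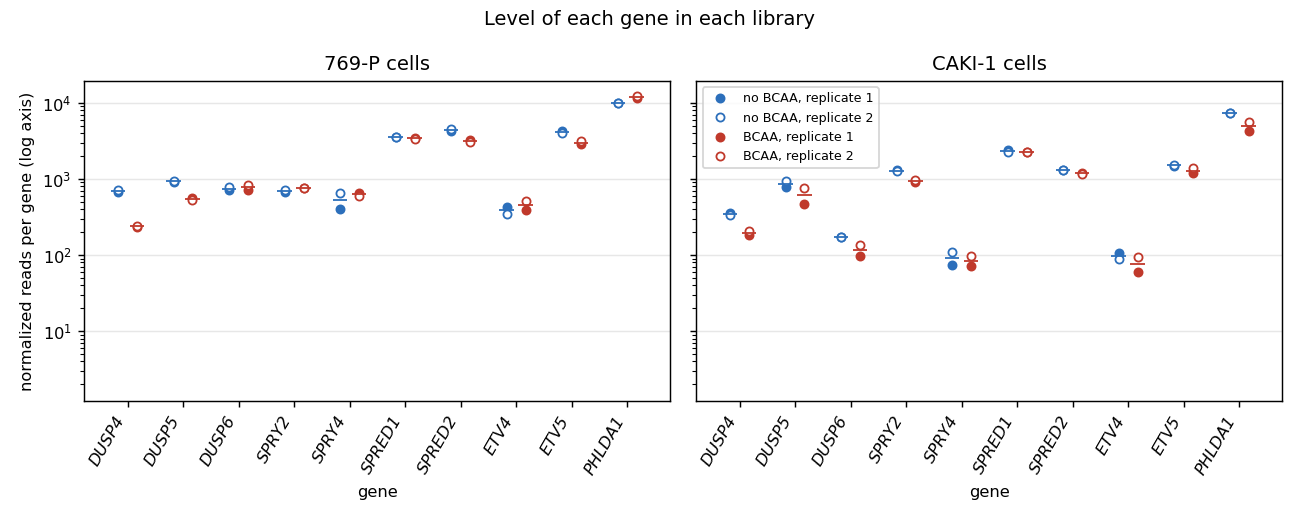
Normalized reads of the 10 genes in each of the 8 libraries, on a log axis. Filled and open points are replicates 1 and 2, blue without BCAA and red with BCAA, and short lines are the means of 2 libraries. DUSP4 is lower with BCAA in both panels, and the PHLDA1 points with BCAA lie above those without in 769-P and below them in CAKI-1.

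DUSP4, a nuclear phosphatase of ERK and other MAP kinases, fell the most of the 10 genes in both lines. In 769-P its level was 231 and 244 normalized reads with BCAA and 663 and 711 without. The libraries of each condition lay close together and far from those of the other. The mean with BCAA was 0.346 times that without, a log2 fold change of -1.53 ± 0.11 (SE, limma adjusted p = 3.2e-07), which placed it at rank 492 among the 4069 genes called lower when ordered by size of change. In CAKI-1 the values were 185 and 208 with BCAA and 360.2 and 333 without, again without overlap, and the log2 fold change was -0.82 ± 0.14 (SE, limma adjusted p = 0.0016).

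DUSP5 (chr10:110497838-110511544, GRCh38, forward strand) encodes a nuclear phosphatase specific for ERK. Its level in 769-P was 562 and 531 with BCAA and 924 and 927 without, and both libraries with BCAA were below both without. The log2 fold change was -0.76 ± 0.08 (SE, limma adjusted p = 1.4e-05). In CAKI-1 its level was 475 and 771 with BCAA and 786 and 943 without. The conditions did not overlap, yet the replicates with BCAA lay farther apart than the higher of them lay from the nearest library without BCAA. The log2 fold change of -0.51 ± 0.18 (SE) was not called (limma adjusted p = 0.073), with a 95% confidence interval of -0.91 to -0.11. It was -0.16 without BCAA replicate 1 and -0.86 without BCAA replicate 2. DUSP5 was called in CAKI-1 with a replicate block (limma adjusted p = 0.0081) and with the spread from all 8 libraries (limma adjusted p = 0.038). Over 13 settings, the main one included, its adjusted p there ran from 0.0081 to 0.35.

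DUSP6 (chr12:89347232-89353271, reverse strand), the cytoplasmic phosphatase specific for ERK, did not pass the main test in either line. In 769-P its level was 716 and 831 with BCAA and 712 and 784 without. The conditions overlapped, and the log2 fold change was 0.05 ± 0.10 (SE, limma adjusted p = 0.75; 95% confidence interval -0.16 to 0.26), turning to -0.02 with upper-quartile scaling. The CAKI-1 libraries held 96.3 and 137 with BCAA and 175 and 171 without, and both libraries with BCAA lay below both without. The log2 fold change was -0.58 ± 0.20 (SE, limma adjusted p = 0.067), or -0.33 without BCAA replicate 1 and -0.84 without BCAA replicate 2. DUSP6 was called in CAKI-1 with the spread from all 8 libraries (limma adjusted p = 0.015). Over 13 settings, the main one included, its adjusted p there ran from 0.015 to 0.16. An annotated gene on the opposite strand, AC024909.2, overlaps 40.5% of the exon bases of DUSP6. Whether the counting used strand is not given in the sources used here, and that gene held 1 to 4 reads per library in 769-P and was not listed in CAKI-1.

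SPRY2 (chr13:80335976-80340951, reverse strand), a Sprouty inhibitor of receptor signalling to ERK, was called lower in CAKI-1 and not in 769-P. In CAKI-1 its level was 908 and 964 with BCAA and 1297 and 1259.8 without. Both libraries with BCAA were below both without, and the log2 fold change was -0.45 ± 0.08 (SE, limma adjusted p = 0.0020). In 769-P the level was 751 and 769.6 with BCAA and 666 and 719 without. The BCAA libraries there lay above the others without overlap, but the log2 fold change of 0.14 ± 0.08 (SE) was not called (limma adjusted p = 0.24; 95% confidence interval -0.05 to 0.32). With upper-quartile scaling the conditions overlapped.

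SPRY4 (chr5:142310427-142326455, reverse strand), a second Sprouty gene, showed no call in the main test of either line. In 769-P its level was 659 and 596 with BCAA and 406 and 648 without, so that 1 library without BCAA stood below the rest. The log2 fold change was 0.29 ± 0.17 (SE, limma adjusted p = 0.22), and it was -0.05 without that library, no BCAA replicate 1. The CAKI-1 values were 71.0 and 98.2 with BCAA and 73.2 and 108 without, with overlap, and the log2 fold change was -0.09 ± 0.27 (SE, limma adjusted p = 0.86). The interval of -0.68 to 0.50 in CAKI-1 leaves changes of either direction within the error.

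SPRED1 (chr15:38252326-38357249, forward strand), which brings the RAS inhibitor neurofibromin to the membrane, had the narrowest confidence interval of the 10 genes in CAKI-1. Its level in 769-P was 3461 and 3393 with BCAA and 3535 and 3559 without. These did not overlap, but the log2 fold change was only -0.05 ± 0.05 (SE, limma adjusted p = 0.48). In CAKI-1 the level was 2286 and 2259 with BCAA and 2364 and 2271 without, and the conditions overlapped. The log2 fold change was -0.03 ± 0.06 (SE, limma adjusted p = 0.82; 95% confidence interval -0.17 to 0.11), and 0.01 with median centring.

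SPRED2 (chr2:65310851-65432637, reverse strand), the related inhibitor of RAS-RAF signalling, was called lower in 769-P. Its level there was 3249 and 3007 with BCAA and 4222 and 4515 without. The conditions were well separated, and the log2 fold change was -0.48 ± 0.06 (SE, limma adjusted p = 3.1e-05). The CAKI-1 libraries read 1202 and 1169.9 with BCAA and 1323 and 1320.3 without. The BCAA libraries were again the lower ones, and the log2 fold change of -0.16 ± 0.07 (SE) was not called (limma adjusted p = 0.17).

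ETV5 (chr3:186046308-186110318, reverse strand) was the member of the PEA3 pair that was called. In 769-P its level was 2867 and 3102 with BCAA and 4201 and 4005 without, with no overlap. The log2 fold change was -0.46 ± 0.06 (SE, limma adjusted p = 3.9e-05). In CAKI-1 the level was 1180.1 and 1372 with BCAA and 1489 and 1513 without. Both BCAA libraries were lower, and the log2 fold change of -0.24 ± 0.09 (SE) was not called (limma adjusted p = 0.073). It was called with upper-quartile scaling (adjusted p = 0.041) and with the spread from all 8 libraries (adjusted p = 0.031). Over 13 settings, the main one included, the adjusted p ran from 0.031 to 0.15. Without CAKI-1 BCAA replicate 1 the log2 fold change was -0.13.

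ETV4 (chr17:43527844-43579620, reverse strand) overlapped between conditions in both lines. Its level was 389 and 509.7 with BCAA and 433 and 351 without in 769-P, a log2 fold change of 0.19 ± 0.14 (SE, limma adjusted p = 0.35). The level in CAKI-1 was 59.3 and 93.2 with BCAA and 106 and 88.8 without, a log2 fold change of -0.38 ± 0.26 (SE, limma adjusted p = 0.37). Replicates with BCAA differed by more than the means of the conditions did, and the CAKI-1 value was -0.06 without BCAA replicate 1 and -0.70 without BCAA replicate 2.

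PHLDA1 (chr12:76025447-76033932, reverse strand) was called in opposite directions in the 2 lines. In 769-P its level was 11419 and 12428 with BCAA and 9887 and 9813 without. Both BCAA libraries were the higher ones, and the log2 fold change was 0.27 ± 0.05 (SE, limma adjusted p = 0.00062). In CAKI-1 the level was 4234 and 5648 with BCAA and 7415 and 7319.6 without. Both BCAA libraries were here the lower ones, and the log2 fold change was -0.59 ± 0.10 (SE, limma adjusted p = 0.0021). It was -0.38 without CAKI-1 BCAA replicate 1 and -0.80 without BCAA replicate 2. Quantile normalization gave an adjusted p of 0.052, the highest over 13 settings, the main one included (0.00041 to 0.052). Overlapping genes on the opposite strand cover 16.5% of the exon bases of PHLDA1, and the one listed, AC011611.3, held 0 to 2 reads per library.

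**Figure D2:**
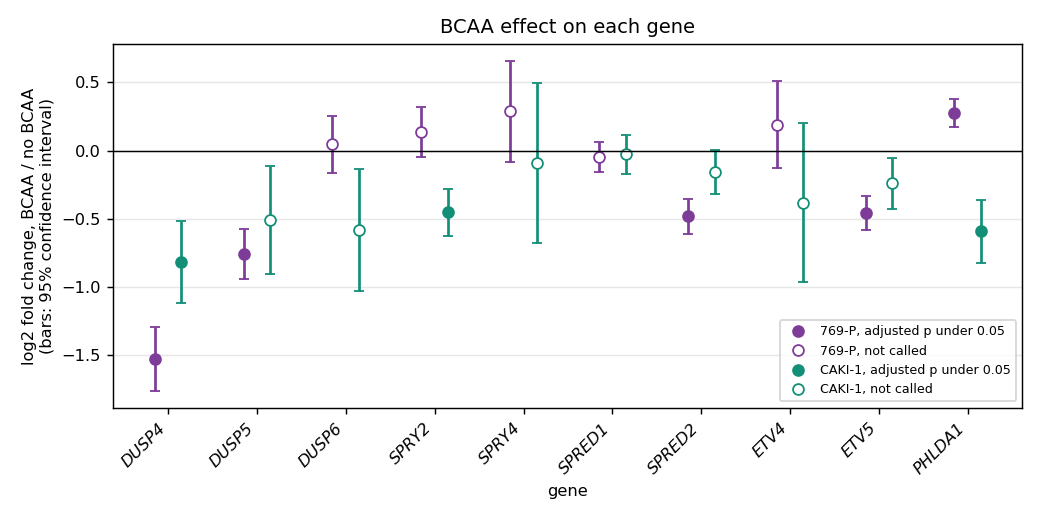
Log2 fold change of BCAA against no BCAA for each of the 10 genes in 769-P (purple) and CAKI-1 (green), with 95% confidence intervals from limma. Filled points have an adjusted p under 0.05. DUSP4 is filled and below 0 in both lines at -1.53 and -0.82, and PHLDA1 is filled on either side of 0 at 0.27 and -0.59.

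Counted by libraries rather than by the test, both 769-P libraries with BCAA were above both without for 2 of the 10 genes, PHLDA1 and SPRY2, against 33.6% of all genes. They were below for 5, namely DUSP4, DUSP5, ETV5, SPRED1 and SPRED2, against 33.5%. In CAKI-1 they were below for 7 (DUSP4, DUSP5, DUSP6, ETV5, PHLDA1, SPRED2 and SPRY2), against 28.8%, and above for 0, against 28.9%. With only 2 libraries a side, the smallest two-sided p of an exact permutation test is 0.333, so no single gene can pass that test. In CAKI-1, BCAA replicate 1 was below BCAA replicate 2 for 8 of the 10 genes, against 49.3% of all genes.

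Each call among the 10 genes was refitted without each library in turn. For the related genes named below, calls lost in such fits are not listed. DUSP4 and DUSP5 kept their call in 769-P in all 4 of these fits, with log2 fold changes of -1.58 to -1.48 and of -0.80 to -0.72. SPRED2 kept its direction there but lost its call without BCAA replicate 1 (adjusted p = 0.055), BCAA replicate 2 (adjusted p = 0.070) or no BCAA replicate 2 (adjusted p = 0.056). ETV5 lost its call without BCAA replicate 1 (adjusted p = 0.057) or no BCAA replicate 1 (adjusted p = 0.054), and PHLDA1 without either library that lacked BCAA (adjusted p = 0.11 and 0.12). Over all genes of 769-P, the share called dropped from 38.4% to between 13.3% and 16.6% in these fits. In CAKI-1, limma called no gene of any kind once a library was left out, so DUSP4, SPRY2 and PHLDA1 lost their calls too. Unadjusted p-values under 0.05 were then found for 2 to 6 of the 10 genes, all lower, against 9.11% to 12.8% of all genes lower and 11.0% to 13.9% higher at that threshold. The values of DUSP4 stayed between -0.90 and -0.73 and those of SPRY2 between -0.49 and -0.41.

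**Figure D3:**
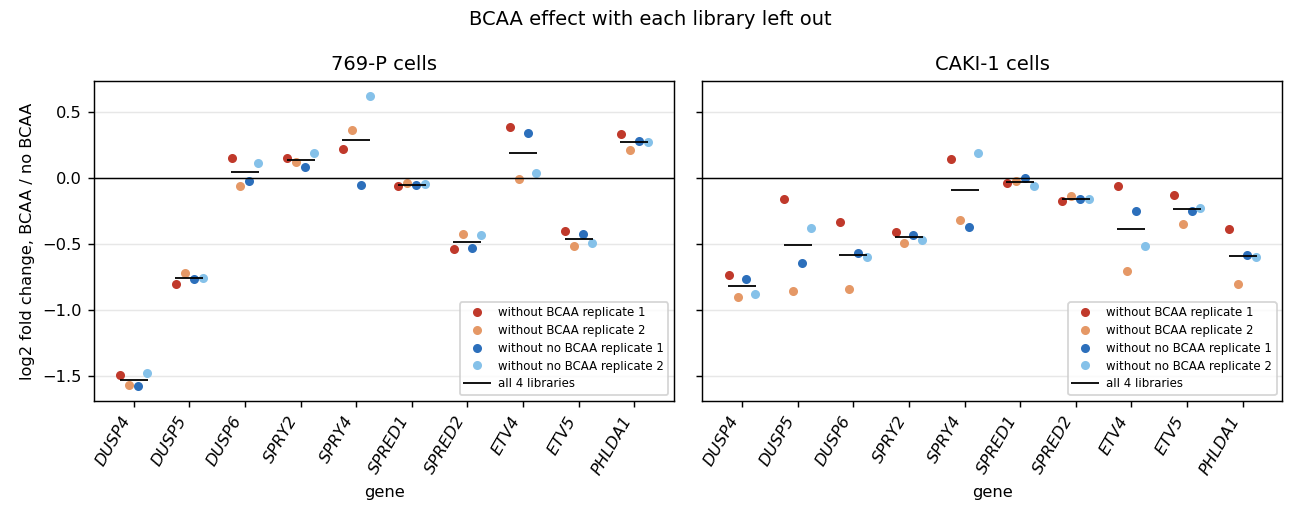
Log2 fold change of BCAA against no BCAA for each of the 10 genes with each library left out in turn, in 769-P and CAKI-1. Black lines show all 4 libraries and colored points the fits with 3. DUSP4 points stay near -1.53 in 769-P and near -0.82 in CAKI-1, whereas DUSP5 in CAKI-1 spreads from -0.86 to -0.16.

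Whether the BCAA effect differed between the lines was tested by an interaction term (limma, 8 libraries), and 4 of the 10 genes passed, against 21.1% of the 19406 genes tested in both lines. With only genes of a mean of at least 10 in both lines tested, the count among the 10 was the same, against 29.9% of all genes. PHLDA1 differed the most, its effect in 769-P exceeding that in CAKI-1 by 0.87 ± 0.13 (SE, log2, adjusted p = 0.00043), and SPRY2 differed in the same sense by 0.59 ± 0.11 (SE, adjusted p = 0.0021). For DUSP4 the difference was -0.71 ± 0.17 (SE, adjusted p = 0.010), as its fall was the steeper in 769-P, and for SPRED2 it was -0.33 ± 0.09 (SE, adjusted p = 0.019). The SPRED2 difference lost its call without 769-P BCAA replicate 2 (adjusted p = 0.091) or 769-P no BCAA replicate 2 (adjusted p = 0.099). DUSP6 stood at 0.63 ± 0.22 (SE, adjusted p = 0.063) and was called by edgeR (adjusted p = 0.041) and DESeq2 (adjusted p = 0.047) on the recovered reads. Its adjusted p ran from 0.041 to 0.11 over 12 settings, the main one included. Without CAKI-1 BCAA replicate 2 limma gave it 0.89 (adjusted p = 0.0052). For DUSP5 the difference was -0.25, with a 95% confidence interval of -0.76 to 0.26, and it was called at -0.60 without CAKI-1 BCAA replicate 1 (adjusted p = 0.014). For ETV5 it was -0.22, with an interval of -0.45 to 0.00, and was called without the same library (adjusted p = 0.025). For SPRED1 the interval ran from -0.18 to 0.14, and SPRY4 and ETV4 had wider ones, of -0.35 to 1.10 and -0.11 to 1.25. ETV4 was called at 0.89 without CAKI-1 BCAA replicate 2 (adjusted p = 0.045).

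**Figure D4:**
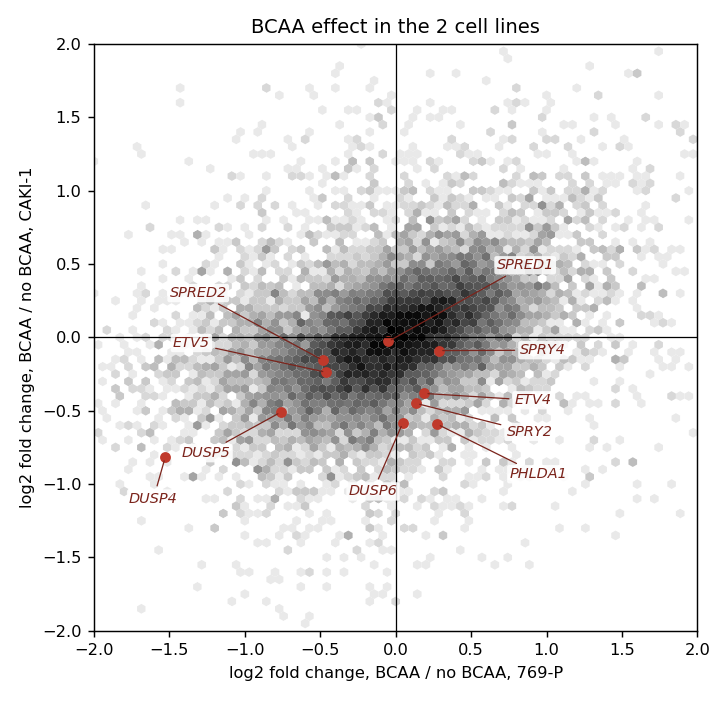
Log2 fold change of BCAA against no BCAA in 769-P (x axis) and CAKI-1 (y axis) for genes tested in both lines, shaded by their number on a log scale, with the 10 genes in red. Of 19406 genes, 660 lie outside the axes. All 10 points lie below 0 on the y axis, and 5 of them lie left of 0 on the x axis.

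Divided by exon length, PHLDA1 had the highest level of the 10 genes in every group, at 1478 normalized reads per kb with BCAA and 1221 without in 769-P, and at 612 and 913 in CAKI-1. In 769-P it was followed with and without BCAA by SPRED2, ETV5 and SPRED1, each separated from its neighbor in both libraries. SPRY2 took the second place in CAKI-1 at 308 with BCAA and 421 without. At the low end, DUSP4 in 769-P stood at 32.7 per kb with BCAA, the last of the 10, and at 94.7 without, where its libraries overlapped those of ETV4 and of SPRY4. SPRY4 was the lowest in CAKI-1, at 12.9 with BCAA and 13.8 without, and the ranges of DUSP4, DUSP6 and ETV4 overlapped one another in turn in CAKI-1 with BCAA. The tables of the lines were normalized separately, so levels were ordered within a line only.

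RefSeq promoter windows (GRCh38.p14, 250 bases before a transcript start) were given for 6 of the 10 genes, 9 windows in all, and are used here for SPRY2 and SPRED2, whose BCAA effects differed between the lines in opposite senses. For SPRY2 the window of the outermost start is shown (chr13:80341127-80341376, reverse strand). For SPRED2 the bases of the outermost window that lie before any annotated exon are shown (chr2:65432638-65432849, reverse strand), and then the window of an inner start (chr2:65366779-65367028, reverse strand). Sequences run 5′ to 3′, and capitals mark motif matches.
SPRY2: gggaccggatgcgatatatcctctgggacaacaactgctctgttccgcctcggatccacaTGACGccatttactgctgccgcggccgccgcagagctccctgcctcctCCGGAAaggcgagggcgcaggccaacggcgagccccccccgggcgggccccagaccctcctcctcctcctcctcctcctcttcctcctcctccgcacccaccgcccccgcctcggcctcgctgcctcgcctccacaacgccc
SPRED2 outer start: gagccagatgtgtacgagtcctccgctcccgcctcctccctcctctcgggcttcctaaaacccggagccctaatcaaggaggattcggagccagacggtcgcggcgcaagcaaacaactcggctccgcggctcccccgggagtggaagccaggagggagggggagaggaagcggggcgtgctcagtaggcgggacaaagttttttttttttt
SPRED2 inner start: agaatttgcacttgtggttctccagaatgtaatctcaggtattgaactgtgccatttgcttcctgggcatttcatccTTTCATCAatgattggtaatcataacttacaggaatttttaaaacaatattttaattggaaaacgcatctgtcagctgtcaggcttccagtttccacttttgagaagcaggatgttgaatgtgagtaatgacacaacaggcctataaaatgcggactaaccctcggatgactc
Searched on both strands were the ETS core CCGGAA (in 14.5% of 35116 windows of this length), the AP-1 site TGANTCA (6.57%), the shortened cAMP response element (CRE) TGACG (21.2%), the full CRE TGACGTCA that contains it (1.65%) and TGATGNAA, a core of the amino acid response element bound by ATF4 (3.14%). The SPRY2 window holds 1 ETS core and 1 shortened CRE, the outer SPRED2 window holds none of the 5, and the inner one holds 1 ATF4 element on the opposite strand. The other windows of SPRY2, and those of DUSP6 and SPRED1, hold none, that of SPRY4 holds 1 shortened CRE, and that of PHLDA1 holds 1 ETS core. The windows of DUSP6, SPRED1 and PHLDA1 have 0 bases before an annotated exon, and that of SPRY4 has 80. A match describes letters in the window and not a bound site.

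Counts in the lists of related genes stand beside 20.3% of all genes called higher and 18.2% lower in 769-P, and 10.8% and 9.05% in CAKI-1. Among genes with a mean of at least 10 these shares were 29.3% and 26.3% in 769-P, and 15.4% and 13.2% in CAKI-1. Among relatives of the 10 genes, of 7 other MAP kinase phosphatases tested in 769-P, 1 was called higher and 3 lower, with a median log2 fold change of -0.09. The stress-inducible phosphatases DUSP1 and DUSP10, which act on p38 and JNK, were among the lower ones at -0.66 and -0.88. In CAKI-1, 1 of 7 was called higher and 1 lower, with a median of -0.14: DUSP7 at 0.50 and DUSP3 at -0.21. The DUSP3 call was lost with median centring (adjusted p = 0.082, within 0.0068 to 0.082 over 13 settings, the main one included). Of the further Sprouty, SPRED, PEA3 and ETS repressor genes, 3 of 5 were called higher and 0 lower in 769-P (median 0.28), and 0 of 6 higher and 1 lower in CAKI-1 (median 0.04). The third PEA3 factor, ETV1, had levels of 1880 and 1969 with BCAA and 1001 and 993 without in 769-P, and of 177 and 185 with BCAA and 305 and 286 without in CAKI-1. Its log2 fold change was therefore 0.95 in 769-P and -0.70 in CAKI-1, both called, and the difference of 1.65 ± 0.13 (SE) was called too (limma adjusted p = 1.3e-06). In 769-P, ETV1 and ETV5 were thus called in opposite directions.

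Further genes commonly read as ERK output numbered 6 called lower and 2 higher of 11 tested in 769-P (median -0.35) and 3 lower and 1 higher of 10 in CAKI-1 (median -0.09). In 769-P the cell cycle gene CCND1, encoding cyclin D1, was lower at -0.81, the receptor EPHA2 at -0.64 and the uridine phosphorylase UPP1 at -1.33, while the receptor EPHA4 was higher at 1.58. In CAKI-1, UPP1 at -0.45, EMP1 at -1.27 and HMGA2 at -0.70 were lower and EPHA4 at 0.81 was higher, of which UPP1 and EPHA4 lost their calls with quantile normalization, and CCND1 at 0.00 and EPHA2 at 0.03 were not called, with signs that depended on the scaling. The difference between the lines was called for CCND1 at -0.81 ± 0.08 (SE, limma adjusted p = 1.3e-05) and for EPHA2 at -0.67 ± 0.08 (SE, limma adjusted p = 4e-05).

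Upstream of ERK, the genes of the RAS to ERK cascade were called higher for 10 and lower for 5 of 21 in 769-P (median 0.05), and higher for 7 and lower for 0 of 21 in CAKI-1 (median 0.10). Of all genes, 20.3% were called higher and 18.2% lower in 769-P, and 10.8% and 9.05% in CAKI-1. In 769-P the ERK gene MAPK3 stood at 0.46 and the RAF kinase gene BRAF at -0.69. Receptor tyrosine kinases counted 4 higher and 4 lower of 12 in 769-P (median 0.05) and 4 higher and 0 lower of 11 in CAKI-1 (median 0.12). Among the called receptors of 769-P, PDGFRB rose the most, by 1.88 on the log2 scale, and EGFR fell the most, by 0.77. PDGFRB held only 27 and 40 reads without BCAA. With a library left out, the log2 fold change was 1.615 to 2.147 for PDGFRB and -0.845 to -0.690 for EGFR. In CAKI-1, FGFR3 rose by 1.36, a call lost with quantile normalization (adjusted p = 0.06). FGFR4 rose in both lines, by 0.70 and 0.75. Of the receptor ligands, 6 of 16 were called higher and 6 lower in 769-P (median -0.11), and 3 of 15 higher and 2 lower in CAKI-1 (median -0.08). HBEGF, a ligand of EGFR, rose by 0.93 and 0.73, and VEGFA, encoding the angiogenic factor, fell by 3.23 in 769-P and by 0.42 in CAKI-1. The adjusted p of VEGFA in CAKI-1 ranged from 0.0051 to 0.21 over 13 settings, the main one included. The CAKI-1 call of VEGFA was lost with DESeq2, thinned reads, no filter, a pseudocount of 0.1 or quantile normalization, and its log2 fold change was -0.19 without BCAA replicate 1 and -0.65 without BCAA replicate 2.

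**Figure D5:**
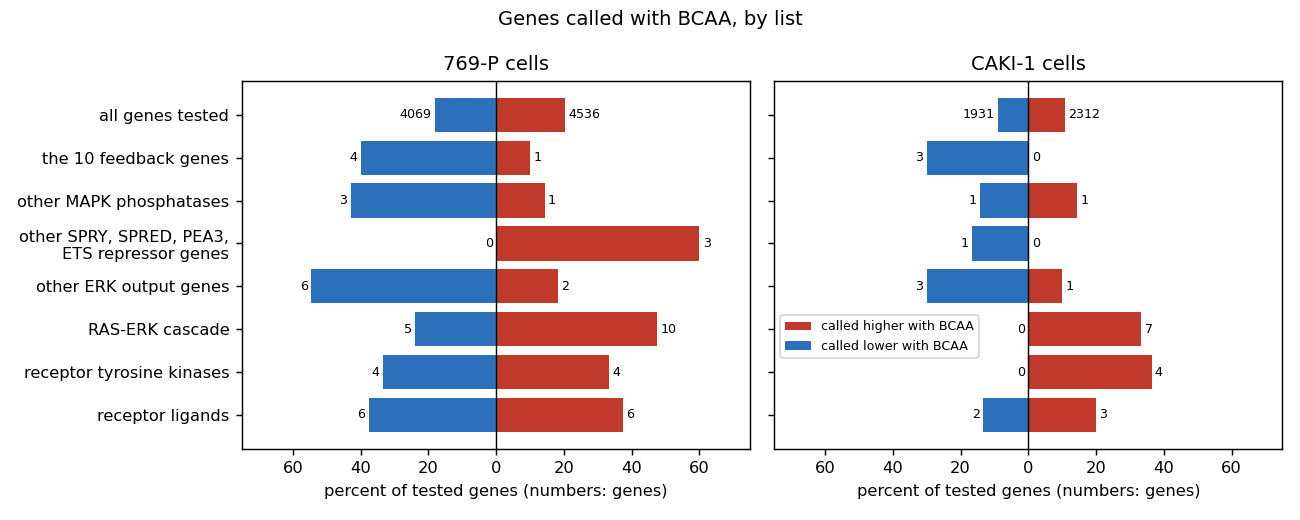
Percent of tested genes called higher (red, to the right) or lower (blue, to the left) with BCAA at a limma adjusted p under 0.05, for all genes, the 10 feedback genes and 6 lists of related genes, in 769-P and CAKI-1. Numbers beside the bars are genes. The 10 feedback genes show 4 lower and 1 higher in 769-P and 3 lower and 0 higher in CAKI-1.

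DUSP6 served as the reference for likeness across the 8 libraries, on log2 values centred on the mean of each line, among 10881 genes with a mean of at least 100 normalized reads in both lines. The genes nearest to it by Pearson's r were SPP1 (0.981), APBB1 (0.980), ATG10 (0.974), DHRS7 (0.971) and PLLP (0.970). Of the feedback genes, PHLDA1 (0.930) and SPRY2 (0.885) lay nearest, DUSP5 stood at 0.568, ETV5 at 0.462 and DUSP4 at 0.377, and SPRED1 (0.154) and SPRED2 (0.146) lay farthest. DUSP6 itself varied little in 769-P, from 712 to 831 normalized reads. In CAKI-1 it ran from 96.3 in BCAA replicate 1 to 175 in no BCAA replicate 1. The r values therefore rest mainly on the CAKI-1 libraries, above all on BCAA replicate 1, and say little about likeness in 769-P. These correlations are descriptions over libraries of both lines, with and without BCAA, normalized and centred within each line. SPRY4 and ETV4 fell under the minimum level.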

How the data were processed

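RNA-seq of 769-P and CAKI-1 cells with or without BCAA was analysed, 8 libraries grouped by the cell line and treatment in their labels. The signal deposited by the authors for each line is the reads of a gene divided by the library's size factor. The submitters' processing notes name Trim Galore, TopHat2 2.1.0, SAMtools 1.3.1, HTSeq 0.6.0, DESeq, DESeq2 and hg38, without roles, and the annotation release and strand use in counting are not given in the sources used here. Every value (100%) was a whole number of reads within 0.01 after multiplication by that factor. Replicates differed by more than counting noise (chi-square per degree of freedom 3.36 to 12.88).

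Symbols and exon lengths came from GENCODE 29, which named 25032 of 25431 identifiers in 769-P and 23881 of 24190 in CAKI-1. The main test was limma 3.58.1 (R 4.3.3) with trend, run on log2(value + 1) where a gene's mean reached 1, separately per line and with no replicate block. P-values were adjusted by Benjamini-Hochberg over all genes, at 0.05 and without a minimum fold. The interaction was fitted over 8 libraries on genes tested in both tables. The code was tested on simulated data. Alternatives were edgeR 4.0.16 and DESeq2 1.42.0 on recovered reads, other scalings, pseudocounts, filters and thresholds, thinned reads, pooled spread, a replicate block and each library left out. Related genes were picked as up to 3 per list and direction, by size of change among called genes with a mean of at least 20. Not all genes so picked are named above, and those named are not always the largest. EPHA2, EPHA4 and CCND1 were named in both lines whatever their call. The 10 genes and the lists were chosen with earlier results of these data known.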

Additional observations from a re-analysis of the deposited data

Results flagged for a closer look

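The BCAA effects of 4 of the 10 genes are listed because the interaction term of limma over 8 libraries found them different between 769-P and CAKI-1. It did so for 21.1% of the 19406 genes tested in both lines, and for 29.9% where a mean of at least 10 in both was required. As 769-P minus CAKI-1 on the log2 scale, the differences were 0.87 for PHLDA1, 0.59 for SPRY2, -0.71 for DUSP4 and -0.33 for SPRED2. PHLDA1 was called in both lines, in opposite directions, and DUSP4 in both in the same direction, whereas SPRY2 was called in CAKI-1 and SPRED2 in 769-P. Their cause was not tested.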

How the results depend on the processing

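Among the 10 genes, 1 was called higher in 769-P (20.3% of all genes), and this count was 2 with a replicate block (21.0%). It was 0 with a minimum of 1.5-fold. No share of all genes is given at that minimum, so counts under it cannot be set against those of all genes. With a library left out the log2 fold change of PHLDA1 was 0.213 to 0.335. The 4 called lower became 2 with the 1.5-fold minimum and 2 to 3 with a library left out (6.06% to 6.79% of all genes lower, against 18.2%). In CAKI-1 the 3 called lower became 6 with the spread from all 8 libraries (11.5% of all genes lower), 6 at an unadjusted p of 0.05 (15.0%) and 0 to 0 with a library left out, where no gene of the table was called. Effects that differed between the lines numbered 4 (21.1% of all genes tested in both), and 2 at an adjusted p of 0.01, for which no share is given. With a library left out, the differences ranged from 0.658 to 1.073 for PHLDA1 and from 0.531 to 0.642 for SPRY2. They ranged from -0.795 to -0.625 for DUSP4 and from -0.382 to -0.270 for SPRED2. Upper-quartile scaling left 1 gene, against 2, whose 769-P libraries with BCAA were all the higher, and no share of all genes is given for that count. The labels do not say whether same-numbered libraries were prepared together, and these deviated together by a correlation of -0.088 in 769-P and 0.061 in CAKI-1. The block raised SPRY4 in 769-P (adjusted p = 0.023) and DUSP5 in CAKI-1 (adjusted p = 0.0081) to a call and took that of DUSP3 in CAKI-1 (adjusted p = 0.050). The cause of these shifts was not tested.

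Signs turned only for values that were not called. Upper-quartile scaling gave -0.017 for DUSP6 in 769-P and, in CAKI-1, -0.032 for CCND1 and -0.010 for EPHA2. EPHA2 was -0.025 with quantile normalization, CCND1 -0.006 with edgeR and -0.003 with thinned reads, and SPRED1 0.013 with median centring. With a library left out, values in 769-P ranged from -0.061 to 0.154 for DUSP6, -0.049 to 0.624 for SPRY4 and -0.004 to 0.385 for ETV4. In CAKI-1 they ranged from -0.368 to 0.188 for SPRY4, -0.057 to 0.001 for SPRED1 and -0.056 to 0.067 for CCND1. The difference between lines ranged from -0.600 to 0.098 for DUSP5 and -0.050 to 0.007 for SPRED1. Of 1310 values of single genes under the alternatives, 1121 kept their direction and side of the threshold, 159 lost a call, 12 gained one and 18 changed sign. With 2 libraries a side, small changes of low genes such as SPRY4 and ETV4 lie within the error.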
